A study of Mus musculus with 4 samples.

Results

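The 84 genes described here carry the symbols of cytosolic ribosomal proteins, the protein part of the ribosome, and were measured in mouse morulae. They are the rows, of 13658 genes in all, whose symbol is Rpl, Rps, Rplp or Rpsa followed by the usual number and letter, a rule that uses names and no measured value. There were 51 large subunit genes (Rpl and Rplp) and 33 small subunit genes (Rps and Rpsa). Of the 84, 77 are the canonical genes and 7 are counted by symbol as copies of a canonical gene (Rpl7l1, Rpl10l, Rpl22l1, Rpl32l, Rpl39l, Rps4l and Rps27l). Rpl32l and Rps4l had no coding length in the annotation used. No alignment was found between the coding sequences of Rpl7l1 and Rpl7. RNA was measured in 4 samples of wild-type morulae, 2 from zygotes injected with a non-targeting siRNA pool (siNT) and 2 from zygotes injected with a pool against Nr1h2 (siNr1h2), which encodes the liver X receptor beta. Both groups were injected at the 1-cell stage with 4 to 5 pL of siRNA at 100 µM and grown in M16 medium to the morula. The sources used here give neither the mouse strain nor the number of embryos in a sample.

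Each ribosome carries 1 copy of nearly every ribosomal protein, with the acidic stalk proteins P1 and P2 as the known exception, so the genes are expressed together and at high level in growing cells. Most of these mRNAs begin with a terminal oligopyrimidine tract (TOP), a C at the cap followed by a run of pyrimidines, through which the kinase mTOR and the binding protein Larp1 adjust their translation. In the mouse embryo, new ribosomes replace those laid down in the egg during the cleavage stages that lead to the morula.

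All expression values come from 1 comparison, siNr1h2 over siNT, in the authors' deposited table, which gives for each gene the normalized count averaged over the 4 samples, a log2 fold change with its standard error (SE), a p and an adjusted p. It holds no value per sample, so the count in each embryo pool, the overlap of the groups and the depth of each library are unknown. Nothing in the labels says how the 2 samples of a group were obtained. The p-values come from the authors' fit to these 4 samples alone, and the spread between them may be technical. Nr1h2 itself was 5.03 times lower in the siNr1h2 samples (95% interval 3.89 to 6.50), with 425 normalized counts in the mean, in the authors' deposited table. Of the cell type markers, 11 of 11 morula genes were listed, with means from 90.8 (Sox2) to 147367 (Dppa3). Of the cumulus and granulosa markers 3 of 8 were listed, at means of 1.94 to 29.6, of the blood markers 2 of 5, at 24.6 and 150, and of the sperm markers 0 of 4. These samples are bulk RNA, in which fewer cells of a type and less RNA per cell cannot be told apart, and normalized counts measure a gene relative to the other RNA and not per embryo.

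The TOP tract is the family's best-known sequence feature, and 6 examples are shown for that reason, chosen among the genes whose annotated start carries one. They run from 25 bases before the annotated start to 15 bases into the transcript, written 5′ to 3′ on the gene's own strand. The sequences are from RefSeq, build GRCm38.p6, while the deposited counts were made on mm9. Capitals mark the pyrimidines counted from the annotated start, where the search looked first. In each of the 6 the base just before that start is a pyrimidine too, so the run extends upstream of the capitals.
Rpl35, chr2:39005117-39005156, minus strand: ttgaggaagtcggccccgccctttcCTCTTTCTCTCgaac
Rpl38, chr11:114668555-114668594, plus strand: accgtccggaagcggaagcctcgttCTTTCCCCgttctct
Rplp2, chr7:141447626-141447665, plus strand: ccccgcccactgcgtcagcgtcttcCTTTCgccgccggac
Rps6, chr4:86857353-86857392, minus strand: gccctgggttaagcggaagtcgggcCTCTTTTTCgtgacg
Rps10, chr17:27635230-27635269, minus strand: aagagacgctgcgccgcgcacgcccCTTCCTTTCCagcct
Rps27, chr3:90213634-90213673, minus strand: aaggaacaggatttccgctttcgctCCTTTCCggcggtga
A TOP-like start was counted where a C followed by at least 4 pyrimidines began within 5 bases of an annotated start. Of the 63 ribosomal protein genes with a promoter sequence, 30 had one (47.6%), beside 23.7% of the 10769 genes of the comparison and 21.2% of all 27025 genes with such a sequence.

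No ribosomal protein gene passed the test in either direction. Of the 83 genes with an adjusted p, 0 were higher and 0 were lower at an adjusted p under 0.05 in the authors' deposited table (the Wald test of DESeq2, by its column names), beside 0.456% of 12069 genes higher and 1.52% lower. At an unadjusted p under 0.05, 1 of 83 was higher, Rps12, beside 5.97% of all genes tested, and 0 of 83 were lower, beside 7.31%. The remaining gene, Rpl32l, averaged only 4.82 normalized counts in the authors' deposited table, too few for an adjusted value. Intervals bound what could have been missed: for 70 of the 83 genes the 95% interval of the fold lay within 1.5-fold in either direction. For 5 genes (Rps21, Rps27, Rps28, Rps29 and Rpl38) it reached a 2-fold increase, so a 2-fold increase of those could not be told from no change.

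Small as they were, the fold changes lay above 0 more often than below. The log2 fold change was above 0 for 60 of the 84 genes (71.4%), with a median of 0.11 (quartiles -0.01 and 0.18), beside 51.0% and a median of 0.01 over all 13658 genes. The ribosomal protein genes were also closer together than other genes. Fold change divided by its SE had an SD of 0.90 over the 84 genes, 1.33 over all genes and 1.38 over the 1252 other genes with a mean of at least 2000, and the median SE of the 84 genes was 0.13. Summed over the 84 genes, the group means implied by the authors' deposited table took 8.53% of all normalized counts in siNT and 9.21% in siNr1h2, from 0.615% of the genes, and the sum itself was 1.04 times the siNT value. The share moved more than the sum because the implied total over all genes was lower in siNr1h2. This sum and the median are given with no test, since the genes share the same 4 libraries.

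**Figure D1:**
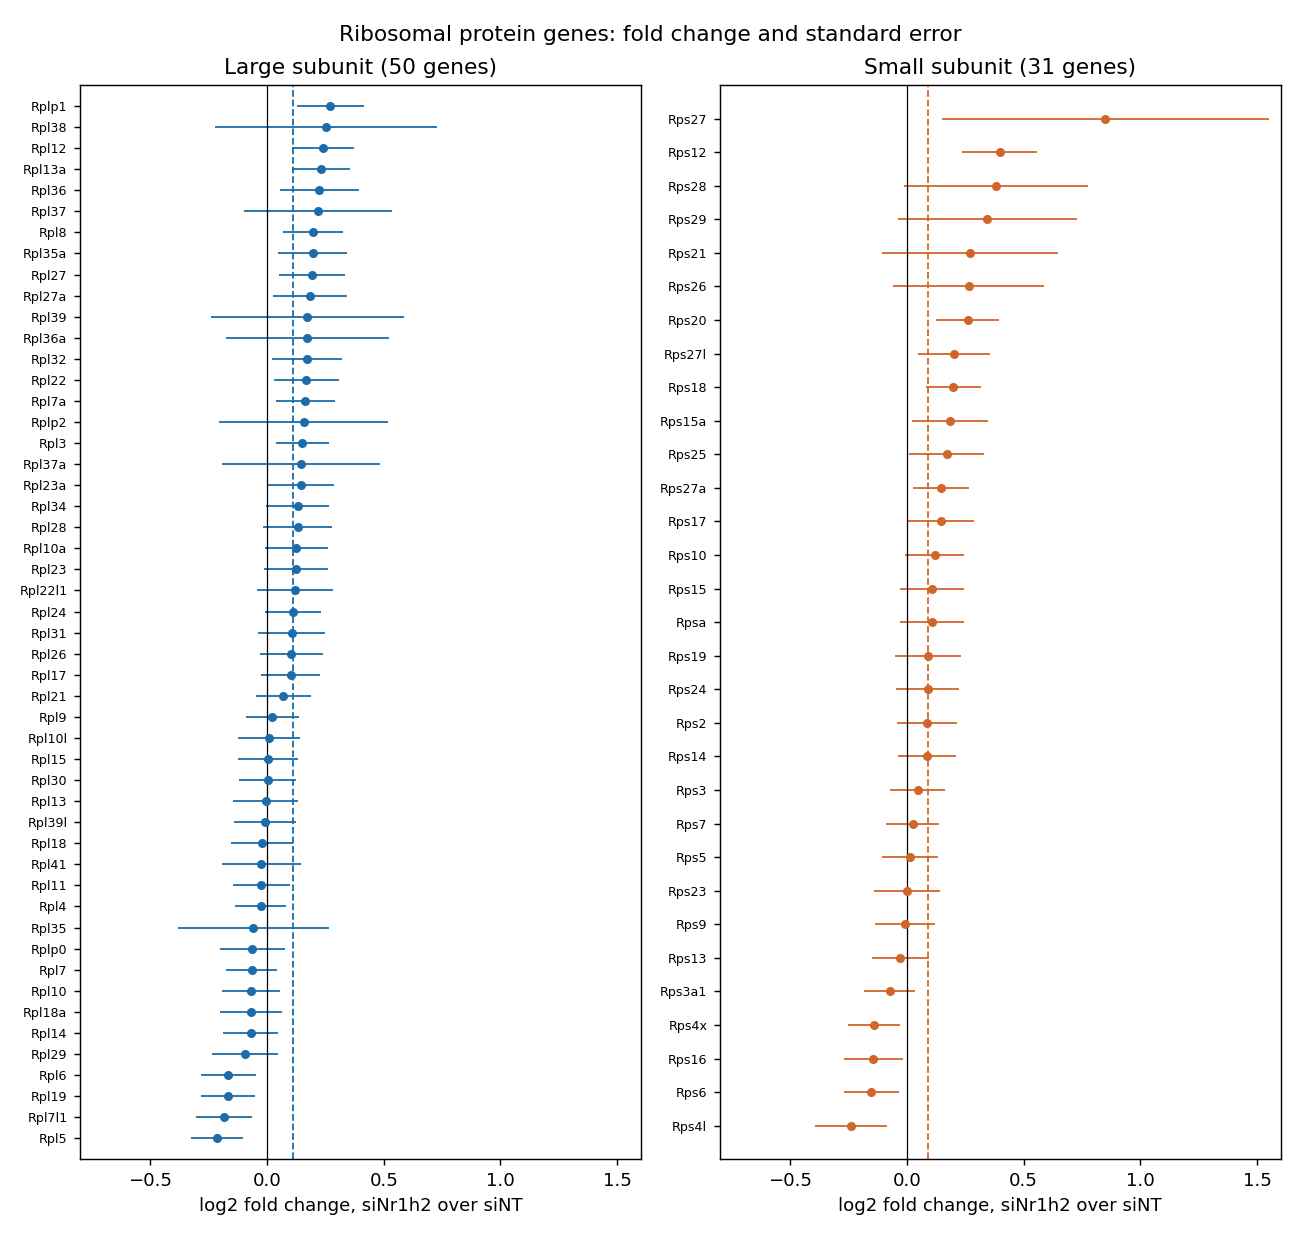
Log2 fold change (siNr1h2 over siNT) of 50 large and 31 small subunit genes with an adjusted p, sorted within each subunit (2 of the 33 small subunit genes are not drawn); bars are 1 SE as deposited and dashed lines the medians over all 51 large (0.11) and 33 small subunit genes (0.09). Most points lie between -0.2 and 0.3, and a few genes, led by Rps27 (0.85, SE 0.70) and Rpl38 (0.25, SE 0.48), have bars several times longer than the rest.

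The large and small subunits had like medians. The median log2 fold change was 0.11 over the 51 large subunit genes, 34 of them above 0, and 0.09 over the 33 small subunit genes, 26 of them above 0. The difference of the medians, large minus small, was 0.02. Means weighted by the inverse of the squared SE (0.05 large, 0.06 small) differed by -0.01, so the sign depends on the summary used. By summed counts the large subunit was at 1.02 times and the small subunit at 1.06 times the siNT level.

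Fold changes were higher among the less abundant ribosomal protein genes. When the 84 genes were ranked by mean normalized count and divided into 3 groups of 28, the median log2 fold change was 0.16 in the lowest group, 0.11 in the middle and 0.05 in the highest. The genes above 0 numbered 23, 18 and 19 of 28. The lowest group held 11 of the 13 genes with an SE above 0.3, and over genes with smaller SEs the medians were 0.13, 0.10 and 0.05. Of the 13 large subunit genes in the highest group, 6 were above 0 (median -0.02), and of the 15 small subunit genes there, 13 were (median 0.09). The median SE was 0.12 in both sets. Their median coding lengths were 576 bases (large) and 474 (small), and the difference between them was not tested. In the lowest group the 20 large subunit genes had a median of 0.14 and the 8 small subunit genes of 0.27. Of these, 7 large and 4 small subunit genes had an SE above 0.3. Means weighted by the inverse of the squared SE were 0.08 and 0.10.

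Other genes within the same ranges of mean count lay below 0 in the middle and highest groups and near 0 in the lowest. The range of the lowest group reaches down to the count of Rpl32l and holds 12514 other genes. Their median log2 fold change was 0.01 and 51.0% were above 0. Their median mean count was 161, against 5589 for the ribosomal protein genes there, so this range does not match abundance. Among the 108 other genes within the mean counts of the middle group, the median log2 fold change was -0.10 and 28.7% were above 0. Among the 49 other genes within those of the highest group, the median was -0.13 and 14.3% were above 0. For all genes with a mean of at least 2000, a limit set after the values were seen, the median was 0.11 over 79 ribosomal protein genes (70.9% above 0) and -0.07 over 1252 others (34.3% above 0). These are descriptions of the same 4 libraries, and the difference between the sets was not tested.

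**Figure D2:**
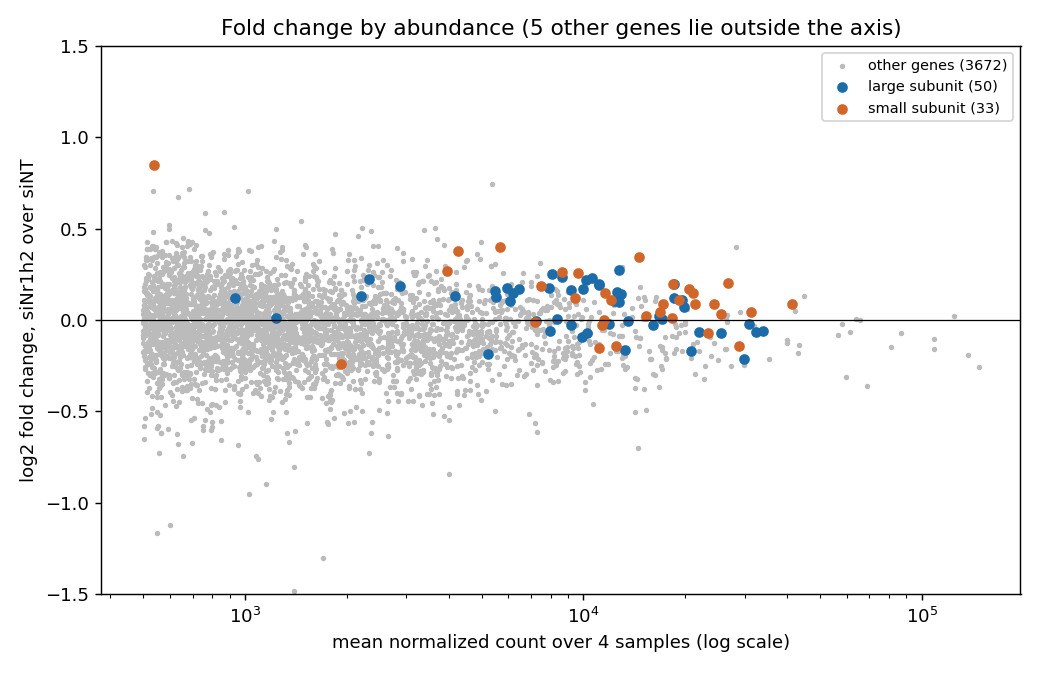
Log2 fold change (siNr1h2 over siNT) against mean normalized count (log axis) for 3672 other genes with a mean of at least 500 (grey; 5 lie outside the axis) and for the 50 large and 33 small subunit genes in that range. At means of at least 2000, 70.9% of the ribosomal protein genes and 34.3% of the other genes are above 0.

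Among the large subunit genes, 3 of the 4 P stalk genes were above 0, with a median of 0.20. The stalk recruits the GTPase factors of translation and is built on Rplp0 with dimers of Rplp1 and Rplp2, next to Rpl12 at its base. In the authors' deposited table the log2 fold change was 0.27 ± 0.14 (SE) for Rplp1 (adjusted p = 0.408) and 0.24 ± 0.13 for Rpl12 (adjusted p = 0.433). In the same authors' deposited table it was 0.16 ± 0.36 for Rplp2 and -0.06 ± 0.14 for Rplp0, the most abundant large subunit gene by count (33878). None of the 4 was called, and Rplp0 and Rplp2 lay within 1 SE of 0.

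The 5S RNP genes were both below 0. Rpl5 and Rpl11 carry the 5S RNA into the large subunit and, when free, bind Mdm2. In the authors' deposited table Rpl5 had the smallest p of any ribosomal protein gene below 0, with a log2 fold change of -0.21 ± 0.11 (SE; p = 0.0542, adjusted p = 0.392), or 0.862 times the siNT level (95% interval 0.742 to 1.00). The implied group means of Rpl5 from the authors' deposited table were 32029 in siNT and 27625 in siNr1h2. Rpl11 was at -0.02 ± 0.12 in the authors' deposited table. Of 4 genes of the Mdm2 and p53 axis, 0 were called: Trp53 was at 0.24 ± 0.15, Mdm2 at 0.11 ± 0.13 and Cdkn1a at -0.07 ± 0.15 in the authors' deposited table.

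Proteins that line or surround the exit of the peptide tunnel were divided. Of 9 such genes 6 were above 0, with a median of 0.11 and 0 called. Rpl19 was lowest at -0.17 ± 0.12 and Rpl22 and Rpl23a stood at 0.17 ± 0.14 and 0.15 ± 0.14 in the authors' deposited table. Outside these groups the smallest p-values above 0 belonged to Rpl13a (0.23 ± 0.13, adjusted p = 0.419), Rpl8 (0.20 ± 0.13) and Rpl27 (0.19 ± 0.14) in the authors' deposited table. Rpl8, a core protein near the peptidyl transferase centre, was at 1.15 times the siNT level (95% interval 0.963 to 1.36). Below 0, Rpl6 was at -0.17 ± 0.12 and Rpl29 at -0.09 ± 0.14 in the authors' deposited table. The abundant Rpl7 (mean 32301) and Rpl41 (mean 30834), the latter the shortest ribosomal protein, were at -0.07 ± 0.11 and -0.02 ± 0.17 in the authors' deposited table.

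Among the small subunit genes, Rps12 had the smallest p of the whole family. Rps12 lies on the beak of the small subunit. Its implied mean count from the authors' deposited table was 4879 in siNT and 6428 in siNr1h2, a log2 fold change of 0.40 ± 0.16 (SE) or 1.32-fold (95% interval 1.06 to 1.64). Its p was 0.0130 and its adjusted p 0.215 in the authors' deposited table, so it was not called. Next by p came Rps20 (0.26 ± 0.14, adjusted p = 0.392) and Rps18 (0.20 ± 0.12, adjusted p = 0.478), both proteins of the subunit's head, in the authors' deposited table. Neither had an interval that excluded 1-fold.

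The genes of the decoding centre and mRNA path were mostly above 0. There were 7 of 8 above 0, with a median of 0.09 and 0 called. The 3 with the smallest p in the authors' deposited table were Rps28 (0.38 ± 0.39), Rps26 (0.27 ± 0.32) and Rps15 (0.11 ± 0.14). Rps26 and Rps28 sit where the mRNA leaves, and both had wide SEs. Rps14, the most abundant gene of the family by count (41428), was at 0.09 ± 0.12 in the authors' deposited table.

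Rps6, the protein whose phosphorylation reports mTOR signalling, was at -0.15 ± 0.12 (SE) in the authors' deposited table, with implied means of 11711 in siNT and 10543 in siNr1h2. Rps27a, made as a fusion with ubiquitin, was at 0.15 ± 0.12, and Rpsa, also known as a laminin receptor, at 0.11 ± 0.14 in the authors' deposited table. Other small subunit genes below 0 were Rps16 (-0.14 ± 0.13) and Rps3a1 (-0.07 ± 0.11) in the authors' deposited table. None of these passed the test.

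The 19 genes of the list linked to Diamond-Blackfan anaemia, a congenital anaemia caused in people by the loss of 1 copy of a ribosomal protein gene, had the median of the family as a whole. Of them 15 were above 0, with a median of 0.11 and 0 called. Besides Rpl5, those with the smallest p in the authors' deposited table were Rpl27 and Rpl35a (0.20 ± 0.15). Of the 4 X-linked genes 2 were above 0 and 2 below: Rpl36a was at 0.17 ± 0.35, Rpl39 at 0.17 ± 0.41, Rpl10 at -0.07 ± 0.12 and Rps4x at -0.14 ± 0.11 in the authors' deposited table.

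The copies of canonical genes had a lower median than the canonical genes, 0.01 over 7 copies (4 above 0) against 0.11 over 77 (56 above 0). In the authors' deposited table Rps4l was at -0.24 ± 0.15 (SE), the lowest fold change of the family, beside -0.14 ± 0.11 for Rps4x. Rpl7l1 was at -0.18 ± 0.12 beside -0.07 ± 0.11 for Rpl7 in the authors' deposited table. Rpl10l, a retrotransposed copy of X-linked Rpl10 best known from the testis, was at 0.01 ± 0.13, and Rpl22l1 at 0.12 ± 0.16 beside 0.17 ± 0.14 for Rpl22 in the authors' deposited table. Rpl39l was at -0.01 ± 0.13 beside Rpl39, and Rps27l, a p53 target gene in other cells, was at 0.20 ± 0.15 (adjusted p = 0.610) in the authors' deposited table. Rpl32l was at 0.83 ± 1.23 in the authors' deposited table, with a fold anywhere from 0.334 to 9.42 within its 95% interval. Rpl3 and Rpl26, whose copies Rpl3l and Rpl26l1 are not among the genes analysed here, were at 0.15 ± 0.11 and 0.11 ± 0.13 in the authors' deposited table.

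The copies differed most in level. Per kilobase of transcript, mean normalized counts were 0.0440 times the parent's for Rpl10l, 0.0724 times for Rpl7l1 and 0.125 times for Rpl22l1. For Rpl7l1 the parent is so named by symbol only, since its coding sequence did not align with that of Rpl7. Rpl39l reached 0.697 times the level of Rpl39 per kilobase of transcript and 0.916 times per kilobase of coding sequence. Rps27l was the reverse, with 53781 normalized counts per kilobase against 1559 for Rps27, a ratio of 34.5 (49.9 per kilobase of coding sequence). That ratio depends on how reads were assigned, because Rps27 has an exact coding copy: over all 252 coding bases Rps27 and the retrogene Rps27rt were 100% identical, against 76.2% between Rps27l and Rps27. Rps27rt had a mean count of 4959 and Rps27 of 538 in the authors' deposited table, and the sources used here do not say how reads of identical copies were divided. Their fold changes were 0.33 ± 0.37 and 0.85 ± 0.70 in the authors' deposited table and are both uncertain.

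Other ribosomal proteins carry symbols outside the naming rule. In the authors' deposited table Fau (S30 fused to a ubiquitin-like protein) was at -0.06 ± 0.15 and Rack1, a scaffold protein on the small subunit, at 0.04 ± 0.12. Rpl36al was at -0.03 ± 0.12 in the authors' deposited table, and its coding sequence matched that of Rpl36a at 87.7%. Shared sequence is common in the family. Annotated pseudogenes of at least 90% identity over at least 80% of the coding sequence were each counted for their best match only. Of the 82 genes with a coding length, 77 had at least 1, with a median of 8 and a maximum of 76 (Rpl21). Of these pseudogenes 13 were listed, Rpl32l among them, and 0 were called. The most abundant was Gm15772, a copy of Rpl26 with a mean of 15238 against 6079 for Rpl26 itself, and both were at 0.11 ± 0.13 in the authors' deposited table. Rpl34-ps1 was at 0.26 ± 0.16 beside 0.13 ± 0.13 for Rpl34 in the authors' deposited table. Counts of these pairs can be divided or exchanged by the counting.

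The precision of the fold changes fell into separate ranges. Of the 84 genes 71 had SEs of 0.11 to 0.17 and 13 had SEs of 0.32 and above, with none between. Besides Rpl32l, the 13 were Rpl35, Rpl36a, Rpl37, Rpl37a, Rpl38, Rpl39, Rplp2, Rps21, Rps26, Rps27, Rps28 and Rps29. They are spread over the ribosome, and what they share is a short coding sequence: 264 bases in the median against 480 for the 71. Rps29 shows the contrast, with a mean count of 14597 and an SE of 0.38, beside Rpl27 with a mean of 11148 and an SE of 0.14, in the authors' deposited table. Under the approximation that the SE comes from 2 against 2 samples of like size, it corresponds to a coefficient of variation of 26.6% for Rps29 and 9.91% for Rpl27. These 2 values are implied by the SE of the authors' fit and were not measured between samples. The SE of 0.3 that divides these genes was chosen after the values were seen.

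Other short genes had wide SEs as well. Of the 1331 genes with a mean of at least 2000, 35 had an SE above 0.3, and 11 of those were among the 79 ribosomal protein genes of that abundance. A coding length was at hand for 31 of the 35, with a median of 228 bases, though Pgp has 963. Among the others were Cox7c, Usmg5 and Ndufa3 of the mitochondrial respiratory chain and ATP synthase, Snrpg and Snrpf of the spliceosome, Tomm7 of the mitochondrial import pore and Tmsb10, an actin-binding peptide. Some short genes had narrow SEs: Rpl41 (75 coding bases) and Rpl39l (153) had SEs of 0.17 and 0.13, and Rpl39, also of 153, of 0.41, in the authors' deposited table. With no value per sample, which library carries this spread could not be seen.

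**Figure D3:**
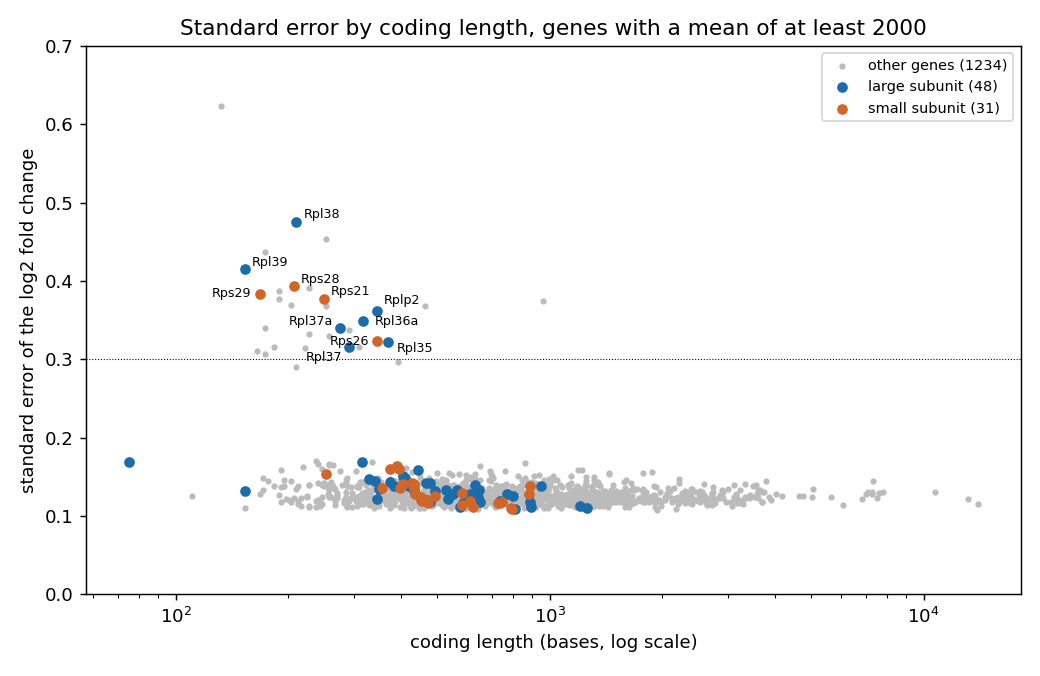
SE of the log2 fold change against coding length (log axis) for genes averaging at least 2000 normalized counts: 1234 other genes in grey, 48 large and 31 small subunit genes in colour. Nearly all genes lie at SEs of 0.11 to 0.17; those above the dotted line at 0.3 are mostly under 400 coding bases, and the 11 ribosomal protein genes among them are named.

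The fold change followed coding length too, within the family and among other abundant genes. Lengths were grouped after the values were seen. Ribosomal protein genes with a mean of at least 2000 had a median log2 fold change of 0.25 up to 250 coding bases (7 genes) and 0.17 from there to 400 (19 genes, 18 of them above 0). It was 0.10 up to 600 bases (30 genes) and -0.01 up to 1200 bases (21 genes, 10 of them above 0). The other genes with a mean of at least 2000 ran in the same order at lower values: 0.04 (60 genes), 0.03 (153), -0.05 (247) and -0.10 (418). The ribosomal protein genes were thus above the others in each of these length groups, by medians and with no test. The sets were not matched in abundance: over all lengths the median mean count was 12057 for the ribosomal protein genes and 3728 for the others. Spearman's rho between fold change and coding length was -0.59 over 82 ribosomal protein genes, -0.50 over the 70 of them with an SE up to 0.3, and -0.21 over 1234 other abundant genes. The genes share the 4 libraries and are not independent, so these values describe this comparison only. The part of length in the family's fold changes was not tested.

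**Figure D4:**
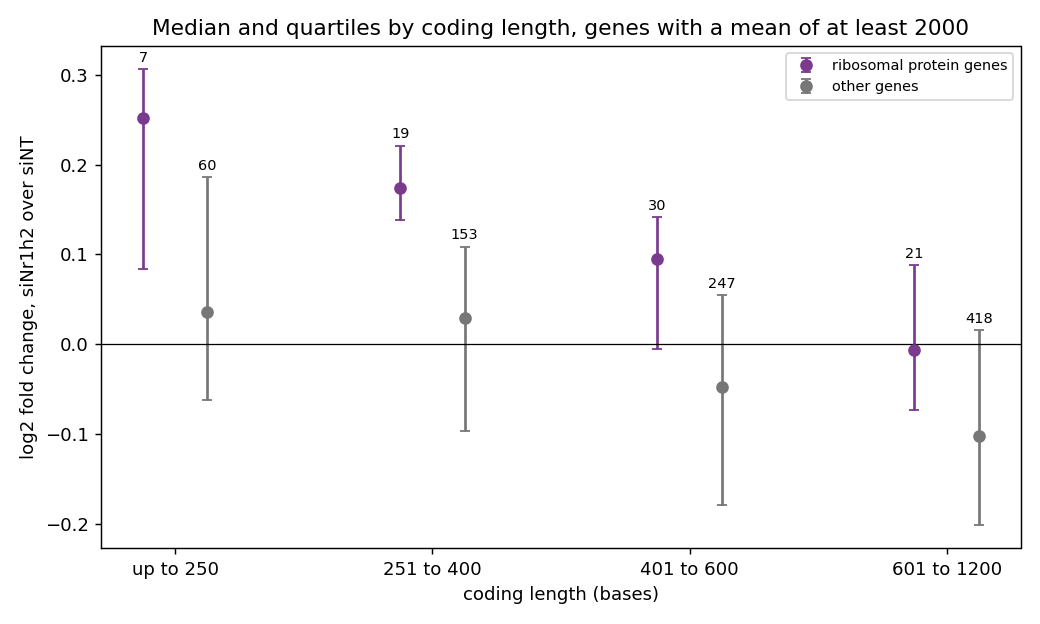
Median log2 fold change (points) with quartiles (bars) by coding length for genes averaging at least 2000 normalized counts; the number above each bar counts genes, and the 2 ribosomal protein genes over 1200 bases are not drawn. Both sets decline with length, and the median of the ribosomal protein genes is the higher one in each class, from 0.25 against 0.04 to -0.01 against -0.10.

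Levels per length were not equal within the family. Per kilobase of annotated transcript, the 77 canonical genes ran from 1559 (Rps27) to 69394 (Rps14) normalized counts, with a median of 13986 and an upper quartile 2.24 times the lower. Leaving Rps27 aside for its identical copy, the lowest canonical large subunit gene was Rpl28 at 1993. Annotated transcripts differ in the length of their untranslated ends, so levels per kilobase of coding sequence were set beside these: there the quartiles differed 2.13-fold and the highest gene was Rpl41, at 411120, because it has only 75 coding bases. The median level of the large subunit genes was 0.768 times that of the small subunit genes per kilobase of transcript. Lowest by count among the canonical small subunit genes after Rps27 was Rps21 (mean 3948, 0.27 ± 0.38 in the authors' deposited table).

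Of the genes that act on ribosomal proteins and their mRNAs (lists of 14, 9 and 12), 3 passed the test: 1 was higher, beside 0.456% of all genes tested, and 2 were lower, beside 1.52%. Eif4e, the cap-binding protein of translation initiation, fell: its log2 fold change was -0.70 ± 0.13 (SE) in the authors' deposited table, 0.617 times the siNT level (95% interval 0.515 to 0.738; adjusted p = 4.17e-05), at a mean count of 14548. Larp1, the protein that binds the capped TOP tract, rose 1.39-fold (95% interval 1.15 to 1.66; 0.47 ± 0.13, adjusted p = 0.0333) in the authors' deposited table. Of the 14 TOP control genes the other 12 were not called, among them Larp4b at 0.33 ± 0.14 (adjusted p = 0.263), Larp4 at -0.29 ± 0.14 (adjusted p = 0.321) and Rheb at -0.28 ± 0.13 (adjusted p = 0.349) in the authors' deposited table. Larp4 and Rheb were named after their values were seen. Eif4ebp1, the abundant inhibitor of Eif4e, was at 0.10 ± 0.13 in the authors' deposited table. Any effect of these factors on translation is not measured by RNA levels.

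Of 9 genes for transcription factors that act at ribosomal protein promoters, 1 fell and 8 were not called. Tbpl1, a relative of the TATA-binding protein, fell by 0.49 ± 0.14 on the log2 scale (adjusted p = 0.0415) in the authors' deposited table. Gabpa, an ETS factor, was at -0.26 ± 0.13 (adjusted p = 0.352) and Yy1 at -0.21 ± 0.14 in the authors' deposited table. The median over the 9 was -0.21, with 2 above 0. Of 12 dedicated chaperones and importers of ribosomal proteins, 0 were called and 5 were above 0, with a median of -0.03. Rpf2, which works with Rrs1 to place the 5S RNP, was at -0.28 ± 0.13 (adjusted p = 0.324), Tsr2, the chaperone of Rps26, at -0.20 ± 0.13 and Aamp, a relative of a yeast chaperone of the Rpl10 protein, at 0.18 ± 0.15 in the authors' deposited table.

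The promoters of the family, taken from 250 bases before to 50 after each annotated start and read on both strands, carried some motifs more often than other promoters. CCGGAAG, an ETS site, was in 26 of 63 (41.3%), against 19.5% of the 10769 genes of the comparison and 9.93% of all 27025. ATGGCG, the core of a YY1 site, was in 21 of 63 (33.3%), against 17.3% and 10.2%. GGGCGG (Sp1) was in 61.9% against 66.4% and 38.2%, TATAAA in 12.7% against 9.06% and 15.7%, and CCAAT in 30.2% against 43.3% and 41.1%. The liver X receptor type of site, AGGTCA repeated in 1 direction with 4 bases between, was in 0 of 63, and in only 4 of all 27025. No match says only that these letters are not in this window. A gene with several annotated starts counts once if any window matched.

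Genes with a TOP-like start had a higher median fold change than those without, 0.14 over 30 genes (24 above 0) against 0.02 over 33 (19 above 0). This division rests on where the annotated starts lie, so the 33 genes are not shown to lack a TOP tract. The sets also differed in length and precision: the median coding length was 411 bases with a TOP-like start and 471 without, and 8 of 30 against 4 of 33 had an SE above 0.3. Of the 6 genes whose starts are shown, Rps10 was at 0.12 ± 0.13 and Rps6 was below 0 in the authors' deposited table, although both have tracts of at least 9 pyrimidines at the start. The difference between the sets, and the part of length in it, was not tested.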

How the data were processed

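RNA of 4 morula samples (2 siNT, 2 siNr1h2) was made into libraries with SMART-Seq v4 from polyadenylated RNA and Nextera XT, per the labels' protocols, a preparation that does not mark strand. Per the submitters' processing notes the build was mm9 and the programs named are Cufflinks 2.2.1, DESeq2, edgeR, HTSeq 0.12.4, RSEM and STAR, with no roles. The annotation is not given in the sources used here, nor is how multiply matching reads were handled. The authors deposited 1 table of their comparison: a mean normalized count (signal), a log2 fold change and its SE, a Wald statistic (score), and p-values with Benjamini-Hochberg adjusted values over 12069 of 13658 genes. It has 0 further per-sample columns, so depth is unknown and no test was refitted.

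From these deposited values, calls at an adjusted p under 0.05, medians, 95% intervals (1.96 SE) and implied group means (the 2 group values with the deposited mean and fold) were computed with Python 3.11.15, pandas 2.3.3 and scipy 1.17.1. Lengths and pseudogenes came from GENCODE M21 (BLAST 2.17.0, E under 1e-05) by symbol, with lengths for 84 of 84 members and coding lengths for 82, and promoters from RefSeq. The text names, for each subunit, the 5 genes of smallest p in each direction and the 3 highest and lowest means, all genes of the short lists, and up to 3 of each longer list; the values of some genes that this rule names are not reported here. The members and lists were chosen with earlier results of these data known. The limits at an SE of 0.3 and a mean of 2000, the length groups, the search for copies, the division by TOP-like start and the names of other genes with wide SEs were chosen after the values were seen.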

Additional observations from a re-analysis of the deposited data

How the results depend on the processing

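Of 49 recomputed values, 48 stayed within the spread used to judge them. For the medians that spread is wide: the median SE of the ribosomal protein genes, 0.13, exceeds their median log2 fold change of 0.11. A median of 0 would also have stayed within it, so the count of 48 does not show that the medians are stable. Among the 48, the difference of large minus small subunit was 0.02 by medians and -0.01 by means with inverse-variance weights. The exception was the share of ribosomal protein genes above 0, which went from 71.4% to 81.0% when fold changes were centred on the median of genes with a mean of at least 500, a shift of -0.04. Calls stayed at 0 in both directions with no low-count filter and after centring. At adjusted p limits of 0.1 and 0.01 and with Holm's adjustment they were 0 too. The smallest adjusted p of the family was 0.215, so those limits and that adjustment could give no other count, though they are among the 48. The median log2 fold change was 0.15 after centring, 0.05 as a weighted mean and 0.09 over genes with SEs up to 0.3, the last an alternative chosen after seeing the data. No paired analysis was possible because only the authors' comparison was analysed, with no value per sample. For the same reason leaving out a replicate, another normalization and a refit with another tool were not run. Coding length stood in for protein length in levels per length. Depth is unknown, and reads of near-identical copies limit single genes such as Rps27.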

Other observations

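Ribosomal protein genes also host small nucleolar RNAs, which guide the modification of ribosomal RNA and are cut from introns. GENCODE placed 58 of these inside 30 of the 84 genes. The median log2 fold change was 0.09 over the 30 hosts (21 above 0) and 0.11 over the other 54 (39 above 0), with 0 called in either set. Rpl13a, which holds 4 of them, was not called: the authors' deposited table gives it a log2 fold change of 0.23 ± 0.13 (SE).

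The precursor of ribosomal RNA, listed as Rn45s, is no member of the family. The authors' deposited table puts its log2 fold change at 0.74 ± 0.30 (SE), which was not called (adjusted p = 0.226). It was singled out after its value was seen. The libraries were primed on polyadenylated RNA, so this row does not measure the amount of ribosomal RNA.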
